A study of Mus musculus with 8 samples.

Results

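The 10 genes described here are widely used marker genes of microglia, the resident macrophages of the retina: Aif1, Cx3cr1, Csf1r, C1qa, C1qb, C1qc, Tyrobp, Itgam, Ptprc, and Fcer1g. They were chosen by name. Each had 1 row and an accepted estimate in every table, so they make up 10 of 21826 genes (23021 rows before small RNAs were left out and rows of 1 symbol were summed). RNA was sequenced from ICR mouse retina in 8 libraries, 1 for each condition. Whole retina was taken at embryonic day 15 (E15) and embryonic day 18 (E18). At postnatal day 2 (P2), P5, and P8, cells of pooled retinas were sorted with an antibody to Cd73, a surface enzyme of the rod photoreceptor lineage, into positive (Cd73PC) and negative (Cd73NC) fractions. All animals were unmanipulated, and the study compared the fractions to separate rods from the other retinal cells. With 1 library per condition, no difference below can be set against a replicate error and no test was made.

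Microglia enter the retina during embryonic life and spread through its layers in the early postnatal period, when they take up dying neurons and prune synapses. Their survival depends on the growth factor receptor Csf1r, and they respond to neurons through receptors such as Cx3cr1 and through immunoreceptors that signal by the adaptors Tyrobp and Fcer1g. They also are a main source of C1q, the molecule that starts the classical complement cascade. None of the 10 genes is known as a gene of rods. Several are shared with other myeloid cells or, for Ptprc, with nearly all leukocytes.

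Levels are given as FPKM, which corrects for the length of a transcript and for how many fragments were mapped, so that levels of different genes may be set side by side. The bounds given with some values are those deposited for the estimate within a library, and they do not cover variation between animals. In 12 of the 80 values the FPKM lay above its own upper bound. Depth relative to E18 whole retina, inferred from the most common ratio of low FPKM values, ranged from 0.965 to 1.61. It was not measured directly, and the absolute depth is unknown. The sort was checked with 9 rod genes. All 9 were past 1.5-fold higher in Cd73PC at each stage, with median log2 differences of 5.95 (P2), 3.14 (P5), and 3.72 (P8). Their summed FPKM in Cd73NC was still 197, 1589, and 1347 at P2, P5, and P8, against 5845, 10683, and 16566 in Cd73PC. The paper states that cells were sorted fast, at a cost in purity. Of 9 genes of Müller glia and astrocytes, 6 (P2), 7 (P5), and 8 (P8) were past 1.5-fold lower in Cd73PC, and 2, 1, and 0 were higher.

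All 10 genes were higher in Cd73PC than in Cd73NC at P2, as were 33.4% of all genes, and lower in Cd73PC at P5 and P8, as were 47.8% and 52.7%. In both fractions they reached their highest levels at P8. The summed FPKM of the 10 genes was 15.9 at E15 and 16.2 at E18. At P2, P5, and P8, the sum was 9.30, 70.9, and 204 in Cd73NC and 56.3, 48.0, and 154 in Cd73PC. The sum in Cd73PC was thus 6.05 times that in Cd73NC at P2, but 67.7% of it at P5 and 75.5% at P8. Of the 10 genes, 4 were at FPKM 1 or more in P2 Cd73NC, against 8 in P2 Cd73PC and 9 in each fraction at P8. Of all genes, 11882 reached that level in P2 Cd73NC, 11697 in P2 Cd73PC, 12132 in P8 Cd73NC, and 11151 in P8 Cd73PC. P8 Cd73NC held the highest level of every one of the 10 genes, and P2 Cd73NC the lowest of 8, with the lowest of Cx3cr1 at E18 and of Tyrobp at E15. In bulk samples such as these, fewer microglia and less RNA per cell cannot be told apart.

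**Figure D1:**
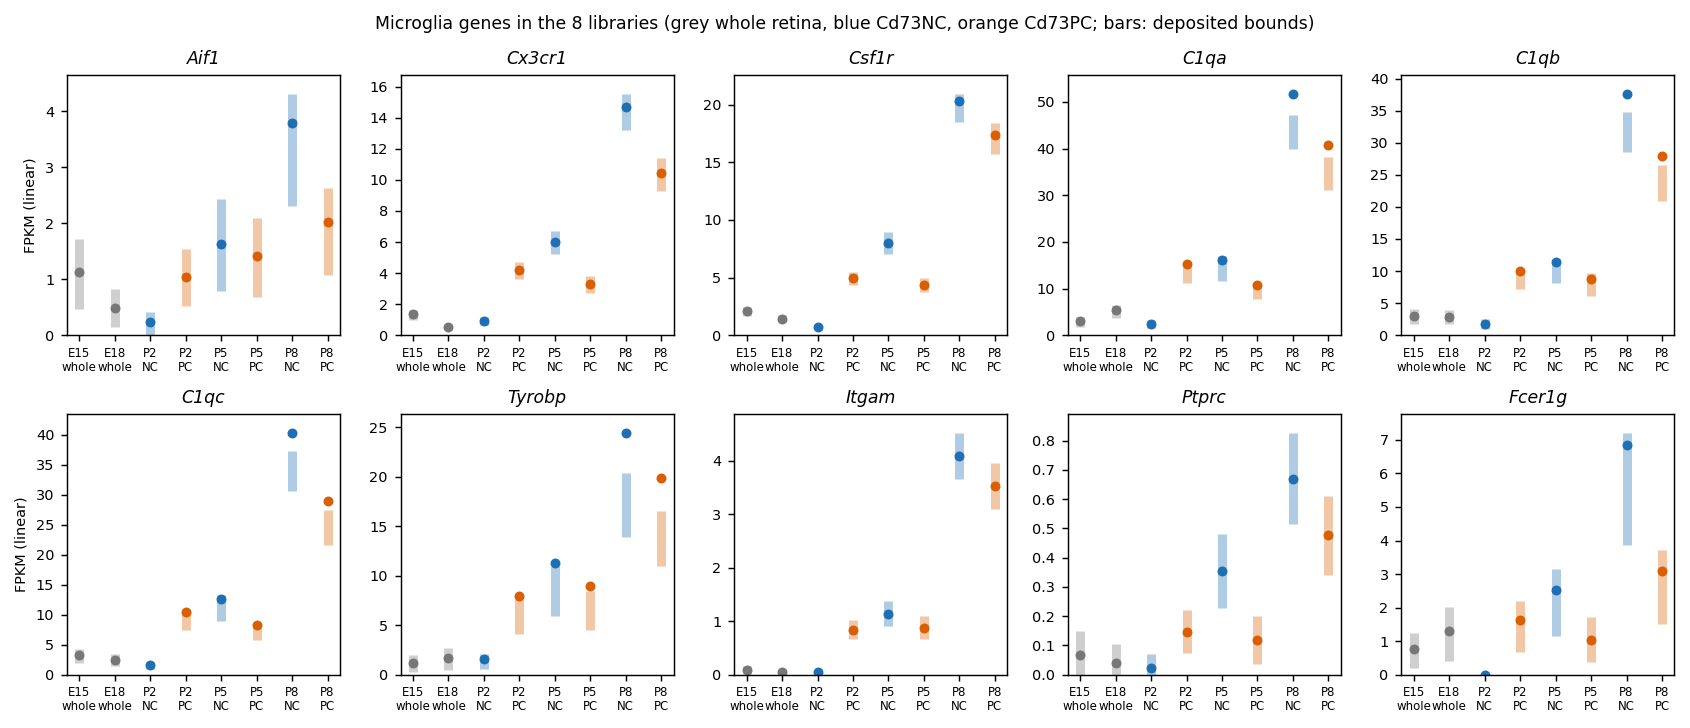
FPKM (linear axis, one panel per gene) of the 10 microglia genes in the 8 libraries, with grey for whole retina, blue for Cd73NC, and orange for Cd73PC. Points are the deposited estimates and bars run between the deposited bounds. In every panel the P8 Cd73NC point is the highest, and the P2 Cd73PC point lies above the P2 Cd73NC point.

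Csf1r encodes the receptor for Csf1 and Il34, on which microglia depend. Csf1r was listed at FPKM 2.07 at E15 and 1.44 at E18, at 0.697 in Cd73NC and 4.94 in Cd73PC at P2, at 8.02 and 4.38 at P5, and at 20.3 and 17.3 at P8. The P2 Cd73NC value, with bounds of 0.499 to 0.890, was the lowest, and its bounds met those of no other library. Only the pairs P2 Cd73PC with P5 Cd73PC and E15 with E18 had overlapping bounds among the 7 neighbouring pairs in the order of levels. Cx3cr1, the receptor for the neuronal chemokine Cx3cl1, was at FPKM 1.34 at E15 and 0.507 at E18, at 0.929 in Cd73NC and 4.20 in Cd73PC at P2, at 6.03 and 3.27 at P5, and at 14.7 and 10.5 at P8. Its own lowest level over the 8 libraries was at E18, and 3 of its 7 neighbouring pairs had overlapping bounds. In both genes the bounds of Cd73PC and Cd73NC were apart at each of P2, P5, and P8.

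The genes of the 3 C1q chains, C1qa, C1qb, and C1qc, had the highest mean FPKM of the 10, though Tyrobp exceeded C1qc in P2 Cd73NC and C1qb and C1qc in P5 Cd73PC, and together made up 56.4% to 66.3% of their summed FPKM in each library. C1qa was at FPKM 3.04 at E15 and 5.49 at E18, at 2.44 in Cd73NC and 15.3 in Cd73PC at P2, at 16.0 and 10.9 at P5, and at 51.7 and 40.8 at P8. C1qb was at 3.03 at E15 and 2.85 at E18, at 1.83 and 10.02 at P2, at 11.4 and 8.84 at P5, and at 37.6 and 28.0 at P8, Cd73NC first. C1qc was at 3.22 at E15 and 2.41 at E18, at 1.53 and 10.3 at P2, at 12.5 and 8.22 at P5, and at 40.3 and 29.0 at P8, in the same order. The chains kept similar proportions: the ratio of C1qc to C1qb lay between 0.840 and 1.10 in all 8 libraries, and that of C1qa to C1qb between 1.23 and 1.52 in the 6 sorted libraries. In whole retina the ratio of C1qa to C1qb was 1.002 at E15 and 1.93 at E18, where the bounds of C1qa ran from 3.61 to 6.42 and those of C1qb from 1.68 to 3.87. All 6 P8 values of the chains lay above their own upper bounds, as did C1qa in P2 Cd73PC.

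The 3 chain genes lie side by side on the minus strand of chromosome 4 (NCBI37), within 18699 bases. C1qb spans chr4:136436061-136442092, C1qc chr4:136445717-136448829, and C1qa chr4:136451831-136454759, and no other row overlaps them. The 250 bases before the RefSeq start are printed here for C1qb (chr4:136442116-136442365, minus strand, NCBI37) and C1qc (chr4:136448830-136449079, minus strand, NCBI37). The window of C1qa was not analysed here. Capitals mark ACTTCCT, which is AGGAAGT on the other strand, the core of sites bound by the myeloid factor PU.1.
C1qb: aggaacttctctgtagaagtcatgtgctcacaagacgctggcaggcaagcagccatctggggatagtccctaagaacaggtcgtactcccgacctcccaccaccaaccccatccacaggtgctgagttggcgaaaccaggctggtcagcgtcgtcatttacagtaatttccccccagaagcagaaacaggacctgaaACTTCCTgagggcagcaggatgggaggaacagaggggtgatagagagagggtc
C1qc: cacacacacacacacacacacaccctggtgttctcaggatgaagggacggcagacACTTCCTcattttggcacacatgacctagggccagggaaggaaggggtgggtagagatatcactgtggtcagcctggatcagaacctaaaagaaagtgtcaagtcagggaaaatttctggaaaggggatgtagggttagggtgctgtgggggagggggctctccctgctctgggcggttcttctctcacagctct
The motif begins at position -53 in C1qb and at -195 in C1qc, counted from the RefSeq start. In windows of 300 bases (250 before and 50 after the start) of RefSeq on GRCm38.p6, 7 of the 10 genes were matched, all but C1qa, Csf1r, and Tyrobp. AGGAAGT stood on either strand in 3 of these 7 genes (C1qb, C1qc, and Ptprc) and in 9.35% of 32851 windows. GAGGAAGT, which contains it, stood in C1qc alone and in 3.2% of all windows. TGTGGT, the core of Runx sites, stood in 3 of the 7 genes (C1qc, Cx3cr1, and Fcer1g) and in 16.8% of windows, and TGANTCA, the AP-1 site, in 0 of the 7 and 7.81% of windows. The motifs were picked after the windows had been seen, so these shares are a description of letters and say nothing about binding.

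Tyrobp and Fcer1g encode small membrane adaptors that carry the signal of receptors without signalling tails of their own, such as Trem2 and the Fc receptors. Tyrobp was at FPKM 1.13 at E15 and 1.64 at E18, at 1.58 in Cd73NC and 7.89 in Cd73PC at P2, at 11.2 and 8.97 at P5, and at 24.4 and 19.8 at P8. Its bounds overlapped in 6 of 7 neighbouring pairs in the order of levels, and 5 of its 6 values in sorted cells lay above their own upper bounds. Fcer1g was at 0.752 at E15 and 1.31 at E18, at 1.62 in Cd73PC at P2, at 2.53 and 1.04 at P5, and at 6.84 and 3.09 at P8. In P2 Cd73NC Fcer1g was listed at 0, with both bounds at 0 and an accepted status. Tyrobp exceeded Fcer1g in every library.

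Itgam encodes the alpha chain of complement receptor 3 (CD11b), and Ptprc the leukocyte phosphatase CD45. Itgam was at FPKM 0.0919 at E15 and 0.0468 at E18, at 0.0467 in Cd73NC and 0.842 in Cd73PC at P2, at 1.13 and 0.875 at P5, and at 4.09 and 3.52 at P8. The lower bound of Itgam was 0 at E18 and in P2 Cd73NC, so folds against these libraries are imprecise. Ptprc was the weakest of the 10, at 0.0680 at E15 and 0.0394 at E18, at 0.0207 and 0.146 at P2, at 0.354 and 0.118 at P5, and at 0.670 and 0.476 at P8, Cd73NC first. It remained under FPKM 1 in all 8 libraries. Aif1, which encodes the calcium-binding protein Iba1, was at 1.12 at E15 and 0.492 at E18, at 0.233 in Cd73NC and 1.04 in Cd73PC at P2, at 1.63 and 1.41 at P5, and at 3.78 and 2.02 at P8. Aif1 had overlapping bounds in all 7 neighbouring pairs, while those of libraries further apart in its order, such as P8 Cd73NC and E18, did not overlap.

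The fractions were compared on log2(FPKM + 1), which understates the change of weak genes, and a gene was called past 1.5-fold on that scale. At P2, 9 of the 10 genes, all but Ptprc, were past 1.5-fold higher in Cd73PC, where 8.56% of all genes and 13.9% of the genes with a mean FPKM of at least 1 were. The median difference of the 10 was 1.61 on the log2 scale, against -0.14 over the genes with a mean FPKM of at least 1. C1qa had the greatest difference (2.24), followed by C1qc (2.16), C1qb (1.96), Csf1r (1.81), Tyrobp (1.78), and Cx3cr1 (1.43). The difference was 1.39 for Fcer1g, 0.82 for Itgam, 0.72 for Aif1, and 0.17 for Ptprc. With a pseudocount of 0.1 in place of 1 the weaker genes differed by more: 4.10 for Fcer1g, 2.68 for Itgam, 2.66 for Csf1r, 2.06 for Cx3cr1, 1.77 for Aif1, and 1.03 for Ptprc. As ratios of FPKM, C1qa was 6.27-fold, Csf1r 7.09-fold, and Tyrobp 4.99-fold higher in Cd73PC. The bounds were apart in 10 of 10, with those of Fcer1g set against bounds of 0, while they were apart and higher in 16.1% of all genes. The P2 comparison rests on the lowest of the 8 libraries for most of these genes, P2 Cd73NC, and cannot be made without it.

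At P5 the direction was the opposite for each of the 10 genes, and 3 were past 1.5-fold lower in Cd73PC, where 15.5% of all genes were. These 3 were Fcer1g (-0.79), Csf1r (-0.75), and Cx3cr1 (-0.72). C1qc (-0.55), C1qa (-0.52), C1qb (-0.33), Tyrobp (-0.30), Ptprc (-0.28), Itgam (-0.19), and Aif1 (-0.12) were lower without reaching 1.5-fold. The bounds of the fractions were apart in 5 of the 10 (Cx3cr1, Csf1r, C1qa, C1qc, and Ptprc), against 26.1% of all genes that were lower by that measure. The median of the 10 was -0.43, and that of the genes with a mean FPKM of at least 1 was -0.18. Quantile normalization moved the latter to 0.003 and upper quartile scaling to -0.08. After quantile normalization 8 of the 10 genes were lower and 2, Aif1 and Itgam, were higher in Cd73PC, and none of the 10 was past 1.5-fold.

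At P8 all 10 genes were again lower in Cd73PC as deposited, and 2 were past 1.5-fold, where 18.6% of all genes were. These were Fcer1g (-0.94) and Aif1 (-0.67). C1qc (-0.46), Cx3cr1 (-0.45), C1qb (-0.42), C1qa (-0.34), Tyrobp (-0.29), Csf1r (-0.22), Ptprc (-0.18), and Itgam (-0.17) differed by less. The bounds were apart in 6 (Cx3cr1, Csf1r, the 3 C1q chains, and Fcer1g), against 30.4% of all genes in that direction. The median of the 10 was -0.38, against -0.22 over the genes with a mean FPKM of at least 1, and quantile normalization moved the latter to 0.02. After quantile normalization 8 of the 10 genes were lower and 2, Itgam and Ptprc, were higher in Cd73PC. Among the genes with a mean FPKM of at least 1 that were past 1.5-fold, 29.4% were higher in Cd73PC at P8 and 30.6% at P5, against 48.0% and 46.8% after quantile normalization. The counts past 1.5-fold at P5 and P8 were thus close to what all genes gave, and the shared direction of the 10 genes at these stages was small in size.

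**Figure D2:**
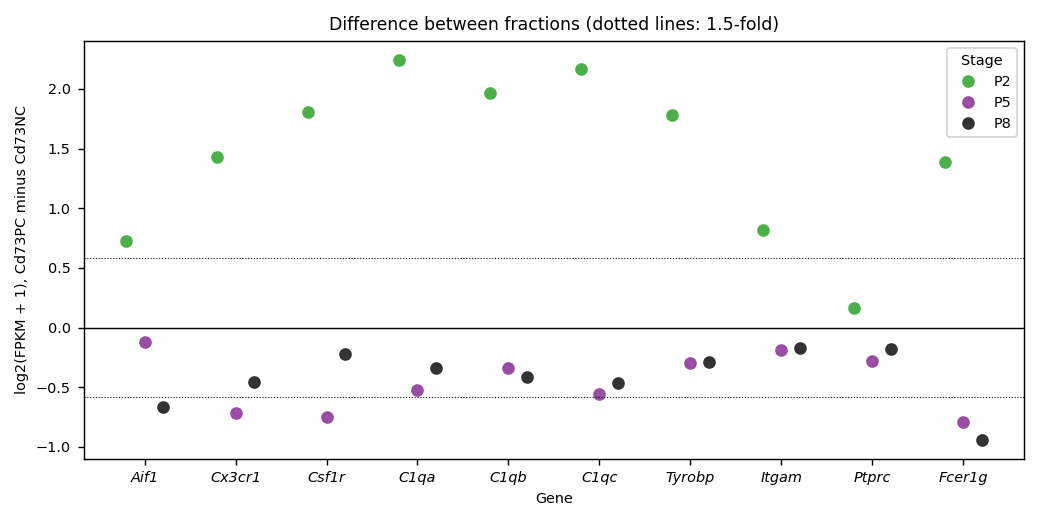
Difference of log2(FPKM + 1), Cd73PC minus Cd73NC, for each of the 10 genes at P2 (green), P5 (purple), and P8 (black), with 1 library per fraction and dotted lines at 1.5-fold. All P2 points lie above 0, between 0.17 and 2.24, and all P5 and P8 points lie below 0, between -0.94 and -0.12, though 2 of the 10 genes at P5 and 2 at P8 turned positive after quantile normalization.

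The sequence of being higher in Cd73PC at P2 and lower at both P5 and P8, by any amount, was shown by 10 of the 10 genes and by 8.67% of all genes. With 1.5-fold required at P2, it was shown by 9 of the 10 and by 1.2% of all genes, and with 1.5-fold required at both P2 and P8 by 2 of the 10 (Aif1 and Fcer1g) and 0.912% of all genes. Rod transcripts, which take up part of the FPKM of Cd73PC, summed to 5845 in Cd73PC and 197 in Cd73NC at P2 over the 9 rod genes, and the rod genes were higher in Cd73PC at all 3 stages while the microglia genes were not. The part of the rod transcripts in these differences was not tested.

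Between E15 and E18 the 10 genes went both ways. C1qa was past 1.5-fold higher at E18 (0.68), where 4.6% of all genes were, and Cx3cr1 past 1.5-fold lower (-0.64), where 2.1% of all genes were. Cx3cr1 was also the only one of the 10 with bounds apart, which 8.6% of all genes had in that direction. The median of the 10 was -0.06, and 7 of the 10 and 35% of all genes were lower at E18.

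In Cd73NC, 9 of the 10 genes, all but Ptprc, were past 1.5-fold higher at P5 than at P2, where 7.92% of all genes were. The median difference was 2.00, from 0.41 for Ptprc to 2.42 for C1qc. From P5 to P8, again 9 of the 10, all but Ptprc, were past 1.5-fold higher, against 8.47% of all genes, with a median of 1.2. From P2 to P8 the FPKM in Cd73NC was 15.4-fold higher for Tyrobp, 15.8-fold for Cx3cr1, 29.1-fold for Csf1r, and 26.2-fold for C1qc. The 87.7-fold of Itgam is a ratio to a value whose lower bound was 0. These differences share the P2 Cd73NC library with the comparison of the fractions at P2.

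In Cd73PC the course had another shape. From P2 to P5, 0 of the 10 genes were past 1.5-fold in either direction, where 3.35% of all genes were higher and 8.57% lower. The median was -0.15, with 7 genes lower and 3 higher as deposited and 5 each way after quantile normalization, where 48.8% of all genes were lower as deposited. Only C1qa (-0.46) had bounds apart, which 22.4% of all genes had in that direction. From P5 to P8, 8 of the 10 genes, all but Aif1 and Ptprc, were past 1.5-fold higher, where 3.31% of all genes were. The median was 1.35, with the greatest differences for C1qa (1.82), Csf1r (1.77), and C1qc (1.70). Over the whole interval from P2 to P8 the FPKM in Cd73PC was 1.91-fold (Fcer1g) to 4.18-fold (Itgam) higher. The P5 and P8 libraries here are the same as in the comparisons of the fractions.

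Set against Csf1r in the same library, the genes fell into different courses. Itgam was at 0.0443 of the FPKM of Csf1r at E15, 0.0325 at E18, and 0.0669 in P2 Cd73NC, but between 0.142 and 0.203 in the other 5 libraries. Aif1 was highest relative to Csf1r at E15 (0.541) and lowest in P8 Cd73PC (0.116). Ptprc stayed between 0.0269 and 0.0442. Tyrobp was at 0.546 of Csf1r at E15, at 2.27 times Csf1r in P2 Cd73NC, and at 1.14 to 2.05 times in the other 6 libraries. C1qa ranged from 1.47 times Csf1r at E15 to 3.81 times at E18. The ratios from E15, E18, and P2 Cd73NC rest on low values with wide bounds.

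**Figure D3:**
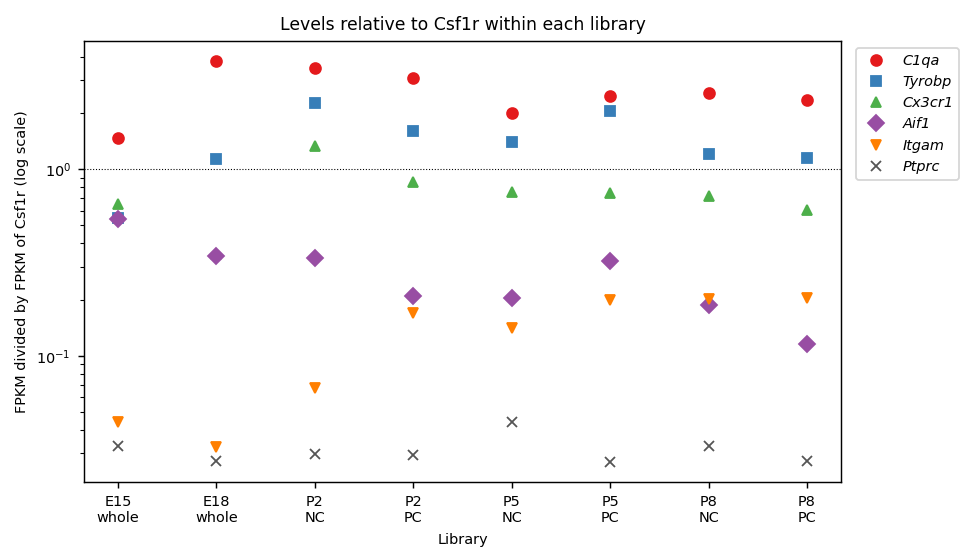
FPKM of 6 of the genes divided by the FPKM of Csf1r in the same library (log axis, dotted line at equal levels) in the 8 libraries. Itgam lies at 0.0325 to 0.0669 in E15, E18, and P2 Cd73NC and at 0.142 to 0.203 elsewhere, whereas Ptprc stays between 0.0269 and 0.0442; at E18 the point of Cx3cr1 (0.351) is nearly hidden behind that of Aif1 (0.341).

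The genes whose course over the 8 libraries was most like that of the 10 were found by the Pearson correlation of log2(FPKM + 1) with the mean scaled profile of the 10, among 12328 other genes with a mean FPKM of at least 1. The values come from 8 libraries that all genes share, so they are a description. The closest was Lyz2 (0.998), the macrophage lysozyme gene, followed by Laptm5, Ctss, Trem2, Pld4, Fcgr3, Unc93b1, Emr1, Atrn, Mpeg1, Gpr155, P2ry12, Cd52, Qpctl, and P2ry13 (0.978). Lyz2 was at FPKM 0.183 in Cd73NC and 2.73 in Cd73PC at P2 and at 13.7 and 9.65 at P8, a course close to that of Cx3cr1. Emr1, which encodes the macrophage antigen F4/80, was at 0.103 and 1.23 at P2 and at 3.23 and 3.04 at P8. Atrn and Qpctl differed from the others in level and in the size of the change, which a correlation does not show. From P2 to P8 in Cd73NC, Atrn went from FPKM 8.75 to 16.8 and Qpctl from 6.47 to 9.44. When each of the 10 was compared with the mean profile of the other 9, the correlation ran from 0.918 for Fcer1g (rank 105 of 12329) to 0.995 for C1qc (rank 3), and C1qb, Csf1r, and Itgam ranked 4, 6, and 15. Over the 45 pairs among the 10 the correlations ran from 0.839 (Tyrobp and Fcer1g) to 0.998, with a median of 0.952.

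**Figure D4:**
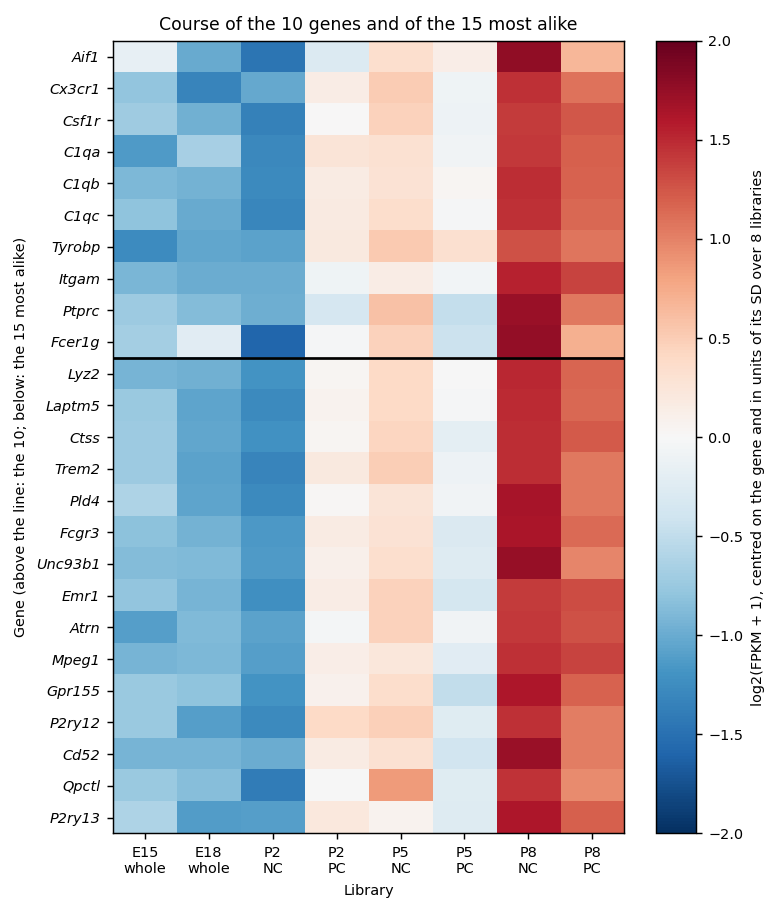
Heat map of log2(FPKM + 1), centred on each gene and in units of its SD over the 8 libraries, for the 10 microglia genes (above the line) and the 15 genes with the most similar course (below), with libraries as columns. The mean of the 10 genes is -0.81 at E15, -0.90 at E18, -1.23 in P2 Cd73NC, 0.02 in P2 Cd73PC, 0.40 in P5 Cd73NC, -0.07 in P5 Cd73PC, 1.53 in P8 Cd73NC, and 1.07 in P8 Cd73PC, and the lower rows run from blue to red in the same way. This scaling does not show the size of a change.

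Other genes of microglia and of their signalling partners were set beside the 10 from lists written by hand. For these, the shares of all genes past 1.5-fold higher in Cd73PC were 8.56%, 7.01%, and 7.53% at P2, P5, and P8, and those lower were 14.4%, 15.5%, and 18.6%. The median over all genes was 0 at P2 and P5 and -0.02 at P8. Of 15 other homeostatic microglia genes, 12 were past 1.5-fold higher in Cd73PC at P2, with a median of 0.94. At P5, 3 of them (P2ry12, Trem2, and Ctss) were past 1.5-fold lower and at P8 1 (Selplg), with medians of -0.39 and -0.30, and after quantile normalization the number of the 15 that were higher in Cd73PC became 5 at P5 and 7 at P8. P2ry12, the purine receptor that guides microglial processes, was at FPKM 1.17 in Cd73NC and 6.04 in Cd73PC at P2, at 6.45 and 3.47 at P5, and at 13.7 and 9.87 at P8. Tmem119 was at 0.111 and 0.918 at P2 and at 3.86 and 2.34 at P8. Of those with a mean FPKM of at least 1, Fcrls differed least at P8, at 6.23 and 5.86.

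The ligands of these receptors had another distribution. Of 6 ligand genes, none was past 1.5-fold higher in Cd73PC, and at P2 3 were lower (Cx3cl1, Cd200, and Cd47), at P5 3 (Csf1, Cd200, and Cd47), and 4 at P8 (those 3 and Tgfb1), with medians of -0.67, -0.64, and -0.80 (1 of the 6 was past 1.5-fold lower at P8 after quantile normalization). Csf1 was at FPKM 1.84 in Cd73NC and 0.969 in Cd73PC at P2, and at 2.36 and 0.827 at P8. Il34, the other ligand of Csf1r, was at 0.156 or less in each library. Cx3cl1, the ligand of Cx3cr1, was highest at E18 (3.60), where Cx3cr1 was lowest, and was at 0.642 in Cd73NC and 0.106 in Cd73PC at P8. Cd200, which restrains myeloid cells through its receptor, was at 25.4 in Cd73NC and 3.02 in Cd73PC at P8 and had the greatest P8 difference of the list (-2.72).

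Of 16 genes of receptors and signalling enzymes linked to Tyrobp and Fcer1g, 5 were past 1.5-fold higher in Cd73PC at P2 (Trem2, Siglech, Fcgr1, Fcgr3, and Lyn). The median at P2 was 0.32. Trem2 and Siglech are also counted among the homeostatic genes above. Only 3 of the 16 had a mean FPKM of at least 1, and the scale understates the change of the others. Trem2 alone was past 1.5-fold lower at P5, and 2 of the 16, Ptpn6 among them, were at P8, with medians of -0.13 and -0.25, and after quantile normalization 9 of the 16 were higher and 7 lower in Cd73PC at P8. Trem2, a receptor for lipids and dying cells that pairs with Tyrobp, was at FPKM 0.472 and 4.16 at P2, at 5.53 and 3.01 at P5, and at 13.8 and 9.37 at P8, Cd73NC first. The kinase gene Lyn was at 0.409 and 1.15 at P2 and at 2.39 and 1.49 at P8. Trem1 and Sirpb1a did not exceed FPKM 0.0560 in any library.

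Complement genes beyond C1q were mostly weak, and 1 of 15 had a mean FPKM of at least 1. At P2 2 of the 15 were past 1.5-fold higher in Cd73PC, among them Itgb2, the partner chain of Itgam. At P5 Cd93 was past 1.5-fold higher and Serping1 lower, and at P8 Serping1 alone was lower, and the medians of the list were 0.01, -0.03, and -0.03, with 12 of the 15 higher at P8 after quantile normalization. Serping1, the inhibitor of the C1 protease complex, was at FPKM 10.5 in Cd73NC and 6.89 in Cd73PC at P2 and at 11.7 and 1.87 at P8. The proteases that bind C1q were near 0: C1ra did not exceed 0.0869 and C1s did not exceed 0.0328 in any library. C2 reached 0.180.

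Of 9 myeloid transcription factor genes, Bhlhe41 alone was past 1.5-fold higher in Cd73PC at P2, P5, and P8, at FPKM 4.61 in Cd73NC and 15.3 in Cd73PC at P8, unlike any of the 10 microglia genes. Sfpi1, which encodes PU.1, was at FPKM 0.277 and 0.616 at P2 and at 2.80 and 1.29 at P8, Cd73NC first, and was the only one past 1.5-fold lower at P8. Irf8 was at 0.816 and 0.781 at P2 and at 2.78 and 1.85 at P8. The list had medians of 0.06 (P2), -0.19 (P5), and -0.16 (P8), and quantile normalization turned the last 2 to 0.003 and 0.28.

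**Figure D5:**
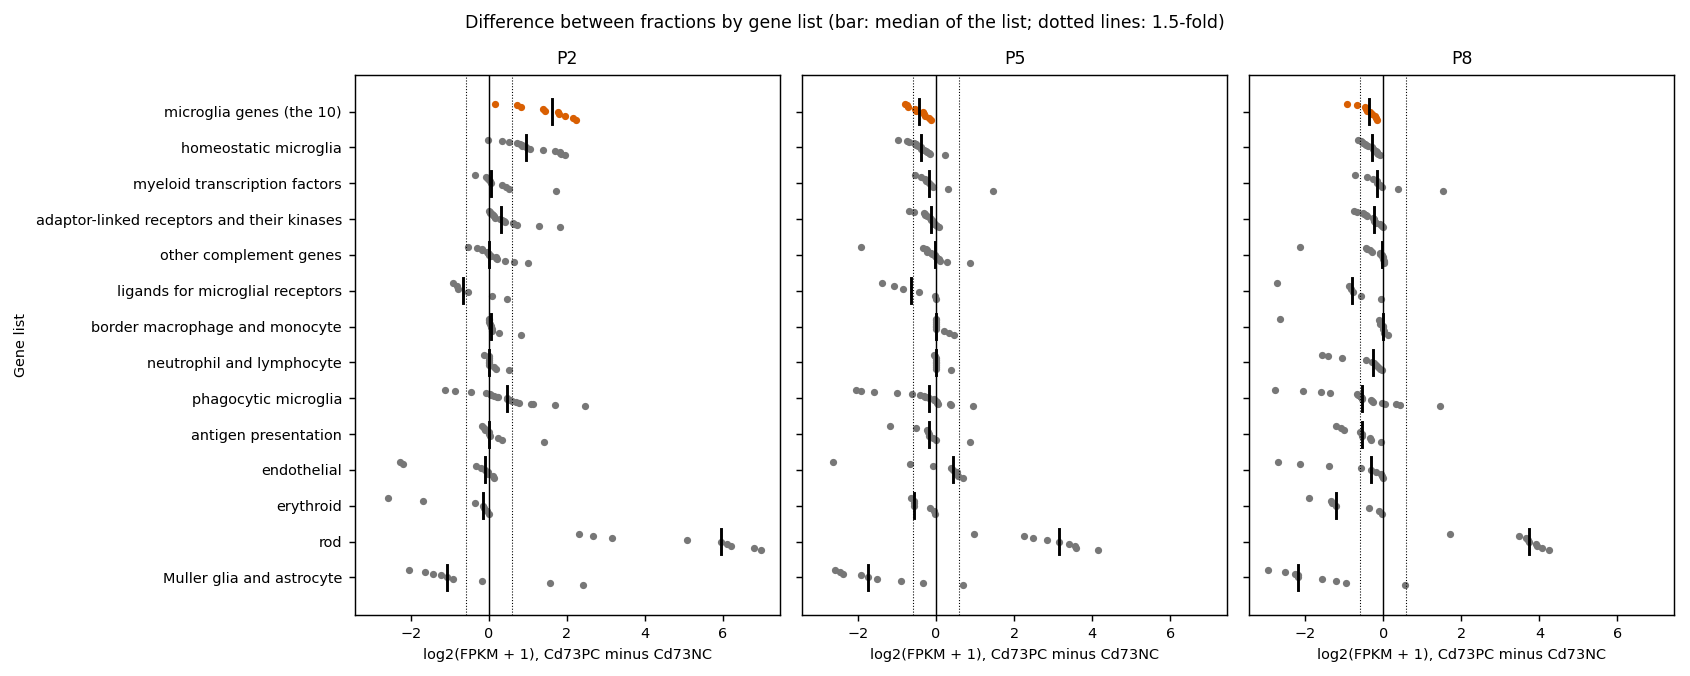
Difference of log2(FPKM + 1), Cd73PC minus Cd73NC, of each gene (points) of 14 gene lists at P2, P5, and P8, with 1 library per fraction, vertical bars for list medians, and dotted lines at 1.5-fold. The 10 microglia genes (orange) have medians of 1.61, -0.43, and -0.38 and the rod genes of 5.95, 3.14, and 3.72; after quantile normalization 8 of the 10 microglia genes at P5 and at P8 were lower and 2 higher, and small medians of the other lists changed sign.

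Because several of the 10 genes are shared with other myeloid cells or leukocytes, markers of these were read in the same libraries. Erythroid and endothelial markers were read beside them. Of 10 genes of border macrophages and monocytes, none was at FPKM 1 or more in 6 of the libraries, and their summed FPKM at P2, P5, and P8 was 0.0778, 0.840, and 9.52 in Cd73NC and 1.30, 1.84, and 1.67 in Cd73PC. Stab1 was past 1.5-fold higher in Cd73PC at P2 and Lyve1 lower at P8, with list medians of 0.05 at P2 and -0.02 at P8 (0.02 after quantile normalization). Lyve1, which lymphatic vessels express too, made up 8.29 of the P8 Cd73NC sum. Mrc1 and F13a1 were highest at E15 (0.281 and 0.357) and did not exceed 0.0401 in sorted cells. Of 10 genes of neutrophils and lymphocytes, 3 were past 1.5-fold lower in Cd73PC at P8: S100a8, S100a9, and Ngp were at 2.78, 2.15, and 1.10 in Cd73NC and at 0.275, 0.183, and 0 in Cd73PC. The sum of that list was at most 0.703 in the other libraries and 7.28 in P8 Cd73NC. Of 7 erythroid genes, 4 were past 1.5-fold lower in Cd73PC at P8, 1 at P5, and 2 at P2, and the sum in P8 was 7007 in Cd73NC and 2764 in Cd73PC, against 133 and 40.2 at P2. Of 9 endothelial genes, 3 were past 1.5-fold lower in Cd73PC at P8 and 2 at P2. At P5, 2 of them were past 1.5-fold lower and 1 higher, with 6 of the 9 higher by any amount and a median of 0.44, and 4 were past 1.5-fold higher with upper quartile scaling and 6 after quantile normalization. The sum of the list at P8 was 89.4 in Cd73NC and 16.0 in Cd73PC. The summed FPKM of the border macrophage, neutrophil and lymphocyte, and erythroid lists was thus highest in P8 Cd73NC, as were the 10 microglia genes. Most of the border macrophage sum in that library was Lyve1. The endothelial sum was instead highest in P2 Cd73NC (170) and was at 159 in P5 Cd73NC. The part of these cells in the levels of the 10 genes was not tested.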

How the data were processed

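FPKM was measured in 8 libraries of ICR mouse retina, 1 per condition: whole retina at E15 and E18 and the Cd73NC and Cd73PC fractions at P2, P5, and P8. Retinas were pooled, dissociated with trypsin, and sorted with propidium iodide staining. Poly(A) RNA was primed randomly and read as 36-base single ends without strand. Per the submitters' processing notes, CASAVA 1.8.2, bcl2fastq 1.8.4, TopHat2 2.0.8b, and Cufflinks 2.1.1 were used, on NCBI37/mm9. The authors deposited FPKM per gene, scaled to length and mapped fragments, with lower and upper confidence bounds, also in FPKM. Reads mapping to several places were kept, and counts were not analysed here, so no count test, interval, or detection floor is given.

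From these, 798 small RNA rows were left out, rows of 234 symbols with several rows were summed, and failed estimates (4 to 10 rows per library) were taken as missing. FPKM lay outside its own bounds in 1428 to 2170 rows per library. Differences were taken on log2(FPKM + 1) and called past 1.5-fold. The alternatives were a pseudocount of 0.1, mean FPKM of at least 1 (5 for the likeness ranking), upper quartile scaling, quantile normalization, and 2-fold. Further ones were non-overlapping bounds required together with 1.5-fold, failed rows as 0, small RNAs kept, and Spearman correlation. Of 21187 symbols shared with an NCBIM37 annotation, 21112 overlapped in position. All 10 genes are named. Of each list, the first 3 genes and those with the greatest and least P8 difference (mean FPKM of at least 1) are named, with the 15 genes most alike. Genes named because few of a list were past the threshold, or as markers, were chosen after their values were seen. Some genes of the lists are not reported here by name. The 10 genes and the lists were chosen with earlier results of these data known. Python 3.11.15, numpy 2.4.6, pandas 2.3.3, and matplotlib 3.10.9 were used, and the scripts were tested on simulated data.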

Additional observations from a re-analysis of the deposited data

Results flagged for a closer look

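For each of the 10 genes, the difference between the fractions ran one way at P2 and the other way at P8, and it is listed here for that reason. The log2 difference of Cd73PC minus Cd73NC at P2, less that at P8, was 2.62 for C1qc, 2.58 for C1qa, 2.38 for C1qb, 2.33 for Fcer1g, 2.07 for Tyrobp, and 2.03 for Csf1r. It was 1.88 for Cx3cr1, 1.39 for Aif1, 0.99 for Itgam, and 0.35 for Ptprc. With 1 library per fraction and stage, this difference was not tested. Any difference of that order (higher at P2, lower at P5 and P8) was also shown by 8.67% of all genes, and for Itgam and Ptprc the P8 direction turned after quantile normalization.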

How the results depend on the processing

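With 1 library per condition, no library could be left out, and the spread between animals is unknown. The fractions of a stage came from the same retinas, and differences were taken within a stage; a paired comparison over the 3 stages, which would take stages as replicates, was not made. Of 177 values of single genes between fractions under the alternatives, 166 moved by less than 1.5-fold and kept their direction, 7 moved by more, and 4 reversed. The 30 values with failed rows as 0 and the 30 with small RNAs kept could not move. Neither could the 27 with a mean FPKM of at least 1, since these settings left the FPKM of the 10 genes unchanged. The 7 larger moves came with a pseudocount of 0.1. The reversals came with quantile normalization: Aif1 0.31 and Itgam 0.18 at P5, and Itgam 0.26 and Ptprc 0.22 at P8. With it, the counts past 1.5-fold lower in Cd73PC became 0 at P5 and 0 at P8. The counts under a 2-fold threshold were 0 at P5, 0 at P8, and 0 for lower at E18 than at E15. With 1.5-fold and non-overlapping bounds both required, the count at P8 was 1. With a pseudocount of 0.1, the P2 median was 2.50, the P5 count 5, the count lower at E18 2, the median of Cd73NC from P2 to P5 2.71, and the count lower in Cd73PC from P2 to P5 1. Quantile normalization also moved the share of higher calls among genes with a mean FPKM of at least 1 from 70.5% to 56.6% for E18 against E15 and from 26.9% to 45.9% for Cd73PC from P2 to P5. Of the 15 most similar genes, 6 were shared when a mean FPKM of at least 5 was required and 12 with Spearman correlation. Over the alternatives run, 7 to 10 of the genes were called higher in Cd73PC at P2, 9 to 10 higher in Cd73NC from P2 to P5 and 8 to 10 from P5 to P8, and 7 to 9 in Cd73PC from P5 to P8. The cause of the changes was not tested.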

Other observations

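A list of 19 genes linked to the phagocytic program that microglia take up when they clear cells was also read. The summed FPKM of the list was 626 in P2 Cd73NC, where that of the 10 microglia genes was 9.30. The part of other cells in these levels was not tested. At P2, 7 of the 19 genes were past 1.5-fold higher and 2 lower in Cd73PC. At P5 1 was higher and 5 lower, and at P8 1 was higher and 7 lower. The medians were 0.47, -0.18, and -0.55 at P2, P5, and P8. After quantile normalization 2 were higher and 4 lower at P8, with medians of -0.07 at P5 and -0.14 at P8. Spp1, the gene of osteopontin, was at FPKM 0.472 in Cd73NC and 3.80 in Cd73PC at P2 and at 14.7 and 9.64 at P8, much like the 10 microglia genes. Gpnmb was listed at 0 in Cd73NC and at 1.18 in Cd73PC at P2, and at 1.07 and 1.79 at P8. Apoe, which Müller glia express too, was at 110.0 and 162 at P2 and at 540 and 179 at P8. Igf1 differed most at P8, at 18.0 in Cd73NC and 1.79 in Cd73PC, and was at 0.0609 and 0.0924 at P2. Among the genes with a mean FPKM of at least 1, the lysosomal protease gene Ctsl differed least, at 69.4 and 68.2 at P8.

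Of 9 antigen presentation genes, 1 was past 1.5-fold higher in Cd73PC at P2, 1 higher and 1 lower at P5, and 4 lower at P8, with medians of 0, -0.19, and -0.56 (2 lower at P8 after quantile normalization). Cd74, the class II chaperone, was at FPKM 2.21 in Cd73NC and 0.379 in Cd73PC at P8 and did not exceed 0.337 in the other 6 libraries. H2-Aa and H2-Ab1 did not exceed 0.802 in any library. Of the 3 genes with a mean FPKM of at least 1, H2-K1 differed most at P8, at 4.35 and 1.54, and H2-D1 least, at 15.7 and 10.3, after 15.3 and 42.9 at P2.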
